A study of Mus musculus with 8 samples.

Results

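The 8 genes described here are *Hmgcs1*, *Idi1*, *Fdps*, *Fdft1*, *Sqle*, *Lss*, *Cyp51*, and *Insig1*, mouse target genes of the transcription factor SREBP2. They were picked by symbol from the 52550 genes of a count table, and 7 of the 8 passed a filter on low counts that 10754 genes passed. The products of 7 of them are enzymes of cholesterol synthesis, and that of *Insig1* is a regulator of SREBP2. No receptor of cholesterol uptake is among them.

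RNA was measured in mouse embryonic stem cells (ESCs) that lack *Eif4a2*, the gene of an RNA helicase that takes part in translation initiation. The KO cells carried either the empty vector (EV) or a vector from which Flag-tagged full-length eIF4A2 (eIF4A2 FL) was re-expressed. RNA recovered with 5 µg of an anti-Flag antibody during 3 h (RNA immunoprecipitation, RIP) and input RNA were sequenced as tags from the 3′ ends of polyadenylated transcripts. The 4 groups held 2 libraries each and are called input EV and RIP EV for the cells with the empty vector, and input eIF4A2 FL and RIP eIF4A2 FL for the others.

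All groups shared the *Eif4a2* KO and, per the study's methods, a Rex1-GFPd2 reporter and a Cas9 transgene. All grew in serum-containing ES medium (15% FBS) with 1.5 µM CHIR99021, 0.5 µM PD0325901, and LIF at 10 ng/ml. The replicates with eIF4A2 FL are separate clones, per the study. Whether the EV libraries came from separate clones or cultures is not given in the sources used here, so the p-values may reflect technical variation between libraries. RIP EV, from cells without Flag-tagged eIF4A2, is the control of the immunoprecipitation. A label field of RIP eIF4A2 FL replicate 2 names *Eif4a3*, whereas its other fields name *Eif4a2*.

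Tags on the targeted gene *Eif4a2* were counted in all 8 libraries, at 53.8 and 94.2 CPM (gene counts scaled to the same total of gene reads per library) in the EV inputs and 86.8 and 69.1 CPM in the eIF4A2 FL inputs, which overlapped. The position of the deletion was not compared with that of the tags, so the tags do not check the KO.

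The inputs held 7269765 and 3204369 gene reads with EV and 4620862 and 6225787 with eIF4A2 FL. The RIP EV libraries stood apart from the other 6. They held 2044853 and 3345151 gene reads, against 11206420 and 9976801 in RIP eIF4A2 FL, and 45.8% and 29.7% of their reads lay outside annotated exons, against 3.30% to 17.6% elsewhere. A read was found for 6086 and 8200 of the 10754 transcripts past the filter, against 10721 and 10698 in RIP eIF4A2 FL. The inputs hold reads for all of them, because the filter required it. The levels of 46.4% of these transcripts agreed within 2-fold between the RIP EV replicates, and those of 2 of the 7 genes past the filter. In the other groups 87.9% to 95.2% of transcripts and at least 6 of these 7 genes agreed within 2-fold. The part of depth and of reads outside exons in the results that use RIP EV was not tested.

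Cholesterol is built from acetyl-CoA through mevalonate, isoprenoid units, squalene, and lanosterol. When sterols are scarce, SREBP2 is carried from the endoplasmic reticulum to the Golgi, is cleaved there, and enters the nucleus, where it switches on the genes of the pathway. When sterols are abundant, INSIG proteins hold SREBP2 and its escort back, and *Insig1* is itself a target of SREBP2.

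The cells carried ESC markers. All 10 marker genes of ESCs passed the filter, with summed levels of 2655 and 2399 CPM in the EV inputs and 3143 and 2672 CPM in the eIF4A2 FL inputs, and *Tfcp2l1* was the most abundant. *Pou5f1*, a core pluripotency gene, had between 5.78 and 19.7 CPM in the inputs and 0 reads in both RIP EV libraries. Of the 6 markers of fibroblast feeders, none passed the filter, their sum did not exceed 6.87 CPM in a library, *Thy1* was the most abundant, and *Col3a1*, *Postn*, and *Lum* were at 0 in all 8 libraries. The 5 markers of primitive endoderm summed to at most 3.01 CPM. By mean, *Dab2* was the most abundant of them in RIP eIF4A2 FL (1.25 CPM) and *Gata4* in input eIF4A2 FL (0.405 CPM). The 4 markers of primed or mesoderm cells summed to at most 55.6 CPM, mostly from *Otx2*.

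QuantSeq yields about 1 tag per transcript whatever its length, so CPM values of different genes were compared without dividing by length. In input EV the order by mean level was *Hmgcs1*, *Cyp51*, *Fdps*, *Sqle*, *Fdft1*, *Lss*, *Insig1*, and *Idi1*, and the ranges of *Cyp51* and *Fdps* overlapped. The places of *Idi1*, *Fdps*, and *Insig1* are uncertain, since 83.1%, 63.9%, and 37.9% of the windows at their 3′ ends also occur elsewhere in the genome, and reads with several alignments were not counted. The order was the same in input eIF4A2 FL, where *Cyp51* overlapped with *Fdps* and *Sqle* with *Fdft1*. In RIP eIF4A2 FL *Fdps* and *Cyp51* changed places within overlapping ranges. In RIP EV the order was *Hmgcs1*, *Cyp51*, *Fdps*, *Lss*, *Sqle*, *Insig1*, *Fdft1*, and *Idi1*. Ranges of neighbors in that order overlapped, except below *Sqle* and below *Fdft1*. Summed over the 8 genes, the level was 889 and 765 CPM in the inputs with EV, 1031 and 1088 CPM in those with eIF4A2 FL, 286 and 489 CPM for RIP EV, and 1015 and 1012 CPM for RIP eIF4A2 FL. Both RIP EV libraries lay below the other 6. *Hmgcs1* alone held 49.1% to 61.5% of the sum in those 6, and 10.9% and 49.2% in RIP EV.

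**Figure D1:**
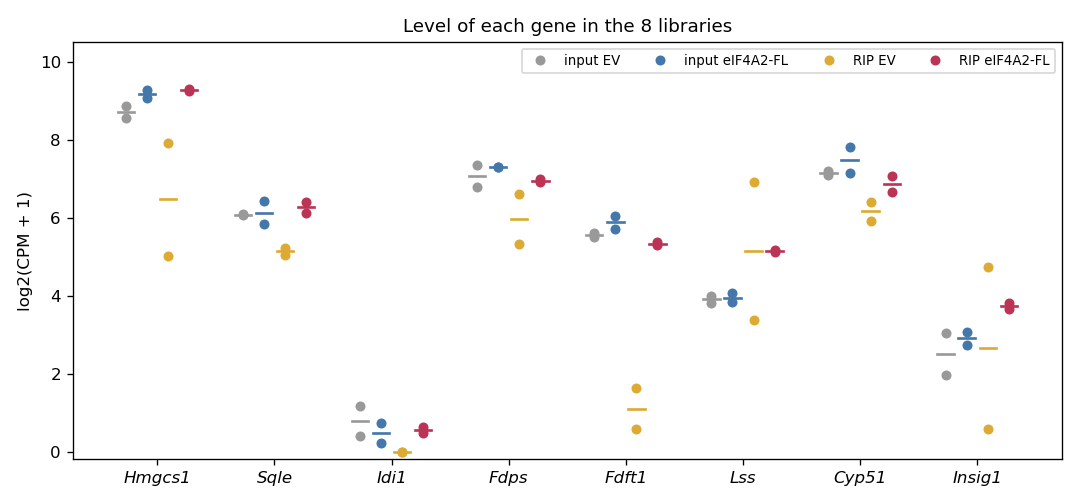
Level of each gene as log2(CPM + 1) in the 8 libraries, with a point per library, a bar at the mean of each group of 2, and a color per group. The points of RIP EV are lowest for *Hmgcs1*, *Sqle*, *Fdps*, *Fdft1*, *Cyp51*, and *Idi1* (at 0), and far apart for *Hmgcs1*, *Lss*, and *Insig1*.

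The comparison of RIP eIF4A2 FL with RIP EV asks which transcripts came down with the tagged protein beyond the control. Its test took 1 spread per transcript for all 8 libraries. The coefficient of variation fitted within a group was 171% for RIP EV and 23.1% to 30.1% for the other groups. The p-values of this comparison may therefore be too small. Among the 7 genes tested, 1 was called higher (*Fdft1*) and 0 lower at an adjusted p under 0.05, while 24.8% of the 10754 transcripts were called higher and 5.46% lower. With edgeR on the 4 RIP libraries alone 0 transcripts were called higher and 0 lower, and with limma voom and a weight per group 0 and 9, so both ended every higher call. By level alone, RIP eIF4A2 FL was above RIP EV in every pair of libraries for 5 of the 7 genes (*Hmgcs1*, *Fdps*, *Fdft1*, *Sqle*, and *Cyp51*) and below in every pair for 0, against 51.9% and 12.1% of all transcripts. Over all transcripts the median was 0.64 on the log2 scale with TMM factors and 0.91 with library size alone. It rested on the libraries used, with 0.67 without RIP EV replicate 1, 3.07 without RIP EV replicate 2, and 1.70 with voom, so the place of a gene relative to this median depends on them too.

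The comparison of RIP eIF4A2 FL with its own input asks which transcripts were over- or underrepresented with the protein relative to their level in the cells. Of the 7 genes, 0 were called higher and 0 lower, against 7.32% and 7.98% of all transcripts; at an unadjusted p under 0.05, 1 was higher and 3 were lower, against 1721 and 1697 of all 10754 transcripts, and DESeq2 called 0 higher and 2 lower, against 943 and 1080. By level, RIP exceeded input in every pair of libraries for 2 of them (*Lss* and *Insig1*) and was below input in every pair for 3 (*Fdps*, *Fdft1*, and *Cyp51*), against 45.8% and 18.7% of all transcripts. The median of all transcripts was 0.015 with TMM factors and 0.32 with library size alone. With library size alone, 1638 transcripts were called higher and 521 lower, against 787 and 858 with TMM factors. With all 8 libraries in 1 fit, 0 transcripts were called higher and 6 lower.

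Re-expression was read from input eIF4A2 FL against input EV. By edgeR's quasi-likelihood test 0 of the 7 genes and 0 of the 10754 transcripts (0% in either direction) passed the threshold of 0.05 after Benjamini-Hochberg adjustment. At an unadjusted p under 0.05, 546 transcripts were higher and 447 lower, 0 of the 7 genes among them, and DESeq2 called 28 higher and 11 lower, again without any of the 7. Both eIF4A2 FL inputs lay above both EV inputs for 2 genes (*Hmgcs1* and *Fdft1*) and below for 0, against 19.8% and 17.3% of all transcripts. In bulk RNA, fewer cells that express a gene and less RNA per cell cannot be told apart.

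The control immunoprecipitation was read from RIP EV against input EV, without a test. Both RIP EV libraries lay above both inputs for 0 of the 7 genes and below both for 5 (*Hmgcs1*, *Fdps*, *Fdft1*, *Sqle*, and *Cyp51*), against 14.6% and 44.9% of all transcripts. Whether RIP over input differed between cells with eIF4A2 FL and with EV was tested as an interaction. That test also took a spread shared with the more variable RIP EV, so its p-values may be too small. The interaction was above 0 for 1 of the 7 genes (*Fdft1*) and below 0 for 0 at an adjusted p under 0.05, against 19.2% and 2.1% of all transcripts. With voom, 0 transcripts passed in either direction, so the call of *Fdft1* ended too.

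*Hmgcs1* (ENSMUSG00000093930, chr13:119690379-119708260 of GRCm38, plus strand) encodes the cytosolic HMG-CoA synthase, which makes the precursor of mevalonate. It had 462 and 376 CPM in the inputs with EV, 611 and 534 CPM in those with eIF4A2 FL, 31.3 and 241 CPM for RIP EV, and 624 and 602 CPM for RIP eIF4A2 FL. Both RIP EV libraries were low and differed from each other several-fold, the eIF4A2 FL inputs lay above the EV inputs, and RIP eIF4A2 FL overlapped with its input. After RIP the mean was 136 ± 148 CPM with EV and 613 ± 15.2 CPM with eIF4A2 FL (SD, n = 2 each). The log2 fold change relative to RIP EV was 1.91 ± 0.80 (SE), which missed the threshold (adjusted p = 0.129, edgeR quasi-likelihood test with Benjamini-Hochberg adjustment). It was 1.10 without RIP EV replicate 1 and 4.10 without RIP EV replicate 2, both past the threshold, where the lone RIP EV library is taken to be as variable as the rest, and it also passed with no filter, at 2.05. Against its input the log2 fold change was -0.21 ± 0.29 with TMM factors and 0.10 with library size alone, and lay below the median of all transcripts by either scaling (-0.23 and -0.22). It was -0.079 without input eIF4A2 FL replicate 1 and -0.33 without input eIF4A2 FL replicate 2. Between the inputs it was 0.45 ± 0.29, and 0.25 without input EV replicate 2.

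The antisense gene *Gm48342*, which lies within *Hmgcs1* and was named after its counts were seen, had 136 and 118 reads in RIP EV, 0 in all 4 inputs, and 0 and 5 in RIP eIF4A2 FL. Its reads were high where those of *Hmgcs1* were low. The strand setting of the counting is not given in the sources used here, so reads of the overlapping pair may be divided wrongly.

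*Idi1* (ENSMUSG00000058258, chr13:8885501-8892451, plus strand) encodes the isomerase that makes the allylic isoprenoid unit. It had 9 and 1 reads in input EV, 3 and 1 in that of eIF4A2 FL, 0 and 0 in RIP EV, and 6 and 4 in RIP eIF4A2 FL. This is at most 1.24 CPM, the gene missed the filter, and no fold is given, since the level in RIP eIF4A2 FL (0.468 CPM) is below the 0.557 CPM that 3 counts over both RIP EV libraries would give. These counts do not give its level: of the 50-nt windows in the last 500 nt of its transcript, 83.1% also occur elsewhere in the genome, and reads with several alignments were not counted. A stretch at chr2:53694365-53694788 matched it at 100% over 424 nt, and another at chr5:87368096-87368522 at 96.5% over 427 nt.

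*Fdps* (ENSMUSG00000059743, chr3:89093588-89101959, minus strand) encodes farnesyl diphosphate synthase, which supplies both sterol synthesis and protein prenylation. It had 163 and 109.5 CPM in the inputs with EV, 155 and 157 CPM in those with eIF4A2 FL, 39.1 and 96.0 CPM for RIP EV, and 125 and 119.9 CPM for RIP eIF4A2 FL. RIP eIF4A2 FL lay above RIP EV and below its input, and the inputs overlapped. The log2 fold change of 0.59 ± 0.48 against RIP EV was close to the median of all transcripts, and passed the threshold only without RIP EV replicate 2 (1.45), and was 0.10 without RIP EV replicate 1. Relative to the median of all transcripts it was -0.57 without RIP EV replicate 1 and -1.62 without RIP EV replicate 2. That against input was -0.66 ± 0.30, or -0.35 with library size alone (adjusted p = 0.155 for the former, edgeR quasi-likelihood with Benjamini-Hochberg adjustment). Its values are uncertain, because 63.9% of the 50-nt windows at its 3′ end also occur in at least 1 of 3 other places, which include the processed pseudogenes *Gm5873*, *Gm3571*, and *Gm8163*.

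*Fdft1* (ENSMUSG00000021273, chr14:63145150-63179578, minus strand) encodes squalene synthase, which commits farnesyl diphosphate to sterols. Its level was 44.3 and 47.7 CPM in the inputs with EV, 50.9 and 65.2 CPM in those with eIF4A2 FL, 0.489 and 2.09 CPM for RIP EV, and 38.1 and 40.3 CPM for RIP eIF4A2 FL. RIP EV was nearly empty, with 1 and 7 reads, and RIP eIF4A2 FL was well above it but below all 4 inputs. After RIP the mean was 1.29 ± 1.13 CPM with EV and 39.2 ± 1.55 CPM with eIF4A2 FL (SD, n = 2 each). *Fdft1* exceeded its RIP EV level in RIP eIF4A2 FL by a log2 fold change of 4.57 ± 0.77 (adjusted p = 0.00696, edgeR quasi-likelihood with Benjamini-Hochberg adjustment), or 3.93 above the median of all transcripts. This excess was 3.30 without RIP EV replicate 1 and 2.91 with voom. The 3.00 without RIP EV replicate 2 rests on 1 read in RIP EV and is no measure of size. Its rank by fitted fold change, 2244 of 10754, is no exact place, since transcripts with 0 reads in both RIP EV libraries are ranked. The value was 3.97 without RIP EV replicate 1 and 6.08 without RIP EV replicate 2, both past the threshold, where the latter rests on 1 read in RIP EV and is no measure of size. The call ended when edgeR was given only the 4 RIP libraries (4.63, adjusted p = 0.103) and with limma voom and a weight per group (4.61, adjusted p = 0.158), both adjusted by Benjamini-Hochberg, and the adjusted p over its 11 alternatives ranged from 1.12e-12 to 0.158.

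Against its input, *Fdft1* had a log2 fold change of -0.87 ± 0.28 (adjusted p = 0.056, edgeR quasi-likelihood with Benjamini-Hochberg adjustment), and both RIP libraries lay below both inputs. With library size alone it was -0.57, and DESeq2 called it lower (-0.89, adjusted p = 0.0364 by Benjamini-Hochberg). The interaction, RIP over input with eIF4A2 FL relative to EV, was 4.22 ± 0.97 (adjusted p = 0.0257, edgeR quasi-likelihood with Benjamini-Hochberg adjustment). That call ended when any of the input or RIP eIF4A2 FL libraries was left out, and with voom, with log2 values between 4.09 and 4.40. *Ctsb*, on the other strand, overlaps the 3′ end of *Fdft1*, and had 0 and 435 reads in RIP EV.

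*Sqle* (ENSMUSG00000022351, chr15:59315077-59331192, plus strand) encodes squalene epoxidase, a rate-limiting enzyme of the late pathway. It had 66.0 and 66.8 CPM in the inputs with EV, 55.8 and 84.5 CPM in those with eIF4A2 FL, 36.2 and 32.0 CPM for RIP EV, and 83.3 and 68.8 CPM for RIP eIF4A2 FL. RIP EV lay below all other libraries with a small spread. The eIF4A2 FL inputs overlapped with the EV inputs and with RIP eIF4A2 FL, while RIP eIF4A2 FL lay above both EV inputs. Relative to RIP EV its log2 fold change was 0.87 ± 0.43 (adjusted p = 0.192, edgeR quasi-likelihood with Benjamini-Hochberg adjustment), 0.24 above the median of all transcripts. Relative to that median it was -2.20 without RIP EV replicate 2, -0.82 with voom, and -0.025 with the replicate number as a block, so its place turned with these. It passed the threshold without RIP EV replicate 1 (1.00) and with DESeq2 (0.89), but not without RIP EV replicate 2 (0.88). Against input it was -0.19 ± 0.29, and 0.11 with library size alone, -0.43 without input eIF4A2 FL replicate 1, 0.10 without input eIF4A2 FL replicate 2, -0.30 without RIP eIF4A2 FL replicate 1, and -0.093 without RIP eIF4A2 FL replicate 2.

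*Lss* (ENSMUSG00000033105, chr10:76531588-76557138, plus strand) encodes lanosterol synthase, which closes the rings of the sterol skeleton. It had 14.9 and 13.1 CPM in the inputs with EV, 13.2 and 15.7 CPM in those with eIF4A2 FL, 119 and 9.27 CPM for RIP EV, and 33.6 and 34.9 CPM for RIP eIF4A2 FL. RIP EV replicate 1 was the highest of all libraries and RIP EV replicate 2 the lowest, and both RIP eIF4A2 FL libraries lay above all 4 inputs. The log2 fold change against input was 0.93 ± 0.33 (adjusted p = 0.0791, edgeR quasi-likelihood with Benjamini-Hochberg adjustment), and with library size alone it was 1.24 and past the threshold (adjusted p = 0.0229, same test). Against RIP EV its direction depended on a single RIP EV library, with -1.21 ± 1.07 from all libraries, 1.63 without RIP EV replicate 1, and -1.99 without RIP EV replicate 2. The values without either library passed the threshold.

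*Cyp51* (ENSMUSG00000001467, chr5:4081145-4104746, minus strand) encodes the lanosterol demethylase, a cytochrome P450. It had 136 and 144 CPM in the inputs with EV, 139 and 224 CPM in those with eIF4A2 FL, 59.7 and 83.4 CPM for RIP EV, and 99.0 and 133 CPM for RIP eIF4A2 FL. RIP eIF4A2 FL lay between RIP EV and the inputs without overlap with either. The log2 fold change was 0.42 ± 0.38 against RIP EV, and -0.95 ± 0.31 against input (adjusted p = 0.0595, edgeR quasi-likelihood with Benjamini-Hochberg adjustment). Without input eIF4A2 FL replicate 1 the latter was -1.23 and past the threshold (adjusted p = 0.044, same test), as it was with DESeq2 at -0.96, but without input eIF4A2 FL replicate 2 it was -0.60 and with library size alone -0.65, neither past the threshold. Against RIP EV it was 0.23 without RIP EV replicate 1, 0.77 without RIP EV replicate 2, and 0.75 without RIP eIF4A2 FL replicate 1. The 3′ end of *Cyp51* meets that of *Akap9* on the other strand.

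*Insig1* (ENSMUSG00000045294, chr5:28071363-28078662, plus strand) encodes a membrane protein that retains SREBP2 and its escort in the endoplasmic reticulum. It had 2.89 and 7.18 CPM in the inputs with EV, 5.63 and 7.39 CPM in those with eIF4A2 FL, 0.489 and 25.7 CPM for RIP EV, and 11.5 and 13.1 CPM for RIP eIF4A2 FL. The RIP EV replicates, with 1 and 86 reads, enclosed all other libraries, and RIP eIF4A2 FL lay above all 4 inputs. The log2 fold change was 0.61 ± 0.48 against input, or 0.91 with library size alone. Against RIP EV it was -0.35 ± 1.33, but -1.31 without RIP EV replicate 1 and 4.41 without RIP EV replicate 2, and both of these passed the threshold, though the latter rests on 1 read in RIP EV and is no measure of size. Its 3′ end shares 37.9% of 50-nt windows with a stretch at chr3:69964814-69965317, so its counts are uncertain too.

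**Figure D2:**
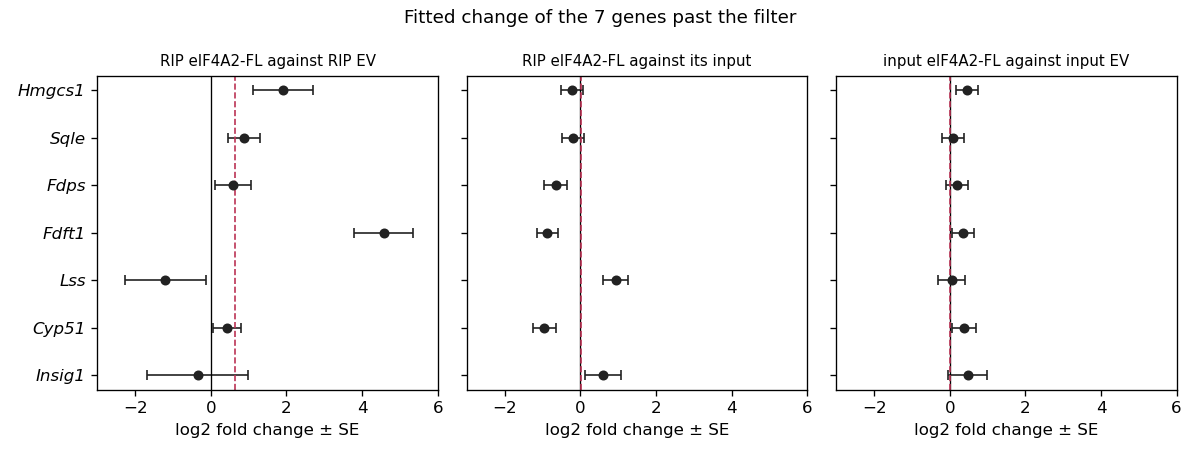
Fitted log2 fold change of the 7 genes past the filter (point) with its standard error (bar) in 3 comparisons, with a solid line at 0 and a dashed line at the median of all 10754 transcripts. *Fdft1* stands apart against RIP EV at 4.57, and *Lss* at 0.93 and *Cyp51* at -0.95 lie on opposite sides against input.

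Over the 7 genes, the median against RIP EV was 0.59 on the log2 scale, and 0.64 for all transcripts. It was 1.00, against 0.67, without RIP EV replicate 1 and 1.45, against 3.07, without RIP EV replicate 2, so its place relative to all transcripts turned with 1 library. Against input it was -0.21, against 0.015, and with library size alone 0.10, against 0.32. It was -0.43 without input eIF4A2 FL replicate 1 and -0.33 without replicate 2. Between the inputs it was 0.34, against 0.0082, and 0.19 without input eIF4A2 FL replicate 2. These comparisons share libraries. By level the 7 lay on both sides of input after RIP, with *Fdps*, *Fdft1*, and *Cyp51* below it and *Lss* and *Insig1* above it.

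Further enzymes of sterol synthesis were read from a list of 14. Of these, 2 were higher in the RIP with eIF4A2 FL than with EV (*Tm7sf2* and *Sc5d*, a sterol reductase and a desaturase) and 0 lower, against 24.8% and 5.46% of all transcripts, with a median of 0.79, against 0.64. Against input, 0 were higher and 3 lower (*Mvk*, *Mvd*, and *Ebp*), against 7.32% and 7.98% of all transcripts. The median was -0.62, against 0.015, or -0.32 with library size alone, against 0.32. *Mvk*, the mevalonate kinase, had 47.0 and 58.5 CPM in input eIF4A2 FL and 25.8 and 27.0 CPM in RIP eIF4A2 FL, a log2 fold change of -1.30 ± 0.29 (adjusted p = 0.0114, edgeR quasi-likelihood with Benjamini-Hochberg adjustment). *Ebp*, a sterol isomerase, had 315 and 313 CPM against 150.4 and 175 CPM, a log2 fold change of -1.25 ± 0.28 (adjusted p = 0.0123, same test). *Mvd*, the mevalonate diphosphate decarboxylase, had 416 and 984 CPM against 310.4 and 391 CPM, a log2 fold change of -1.29 ± 0.39 (adjusted p = 0.0432, same test). Leaving out input eIF4A2 FL replicate 2 ended the calls of *Mvk* (-1.17) and *Mvd* (-0.58), and leaving out either RIP eIF4A2 FL library ended those of all 3, with values from -1.10 to -1.51 for *Mvd*, -1.24 to -1.37 for *Mvk*, and -1.11 to -1.41 for *Ebp*. None of the 3 was called with all 8 libraries in 1 fit, and *Mvd* was not called with library size alone or with filterByExpr, so that of 11 alternatives 8 kept the call of *Ebp*, 7 that of *Mvk*, and 5 that of *Mvd*.

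Of 10 genes of SREBP processing and sterol sensing past the filter, 1 was higher in the RIP with eIF4A2 FL than with EV (*Srebf2*, the gene of SREBP2 itself) and 1 lower (*Ubxn4*), against 24.8% and 5.46% of all transcripts, with a median of 0.59, against 0.64. *Srebf2* had 0.489 and 27.2 CPM with EV and 357 and 264 CPM with eIF4A2 FL after RIP, and 132 and 255 CPM in the input of that line, and its fitted log2 value relative to RIP EV was 4.19 (adjusted p = 0.048, edgeR quasi-likelihood with Benjamini-Hochberg adjustment). This was 3.26 without RIP EV replicate 1 and 9.06 without RIP EV replicate 2, where the latter rests on 1 read in RIP EV and is no measure of size, and 5 of 11 alternatives ended the call, among them leaving out RIP eIF4A2 FL replicate 1 (4.11) or 2 (4.50). *Ubxn4*, of endoplasmic-reticulum protein turnover, had 293 and 249.9 CPM with EV and 70.0 and 115 CPM with eIF4A2 FL after RIP. Its inputs had 64.5 and 63.7 CPM with EV and 78.1 and 32.3 CPM with eIF4A2 FL. RIP EV thus lay above its input, and RIP eIF4A2 FL overlapped with its own. Relative to RIP EV the log2 fold change was -1.83 ± 0.53 (adjusted p = 0.0415, edgeR quasi-likelihood with Benjamini-Hochberg adjustment). Of 11 alternatives, 7 ended this call, among them library size alone (-1.55), no filter (-1.64), and leaving out RIP eIF4A2 FL replicate 1 (-1.38) or 2 (-2.14). Against input none of the 10 was called, against 7.32% higher and 7.98% lower of all transcripts, and their median was 0.30, against 0.015, or 0.60 with library size alone, against 0.32.

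Of 7 genes of sterol transport, storage, and efflux past the filter, 2 were higher than in RIP EV (*Lipa* and *Osbp*) and 0 lower, against 24.8% and 5.46% of all transcripts, with a median of 0.53, against 0.64. Against input 0 were higher and 2 lower (*Scarb1* and *Npc2*), against 7.32% and 7.98%, with a median of -0.51, or -0.21 with library size alone, against 0.015 and 0.32. *Npc2*, a lysosomal sterol carrier, had a log2 fold change of -1.34 ± 0.32 against input, and *Scarb1*, a lipoprotein receptor, of -1.79 ± 0.42. Without input eIF4A2 FL replicate 2 these were -0.92 and -1.05 and no longer past the threshold, and both calls also ended without either RIP eIF4A2 FL library and with all 8 libraries in 1 fit. Of 11 genes of fatty acid synthesis, 1 was higher than in RIP EV (*Fads2*) and 0 lower, against 24.8% and 5.46% of all transcripts, with a median of 0.81, against 0.64. None was called against input, against 7.32% higher and 7.98% lower, with a median of -0.28 that turned to 0.031 with library size alone, against 0.015 and 0.32. The genes *Osbp*, *Tm7sf2*, *Lipa*, and *Fads2* had 0 reads in both RIP EV libraries, and against the floor of 3 counts over both they were at least 33.3-fold, 28.2-fold, 3.99-fold, and 13.8-fold higher. *Sc5d*, with 2 and 15 reads in RIP EV, had a log2 fold change of 2.99 ± 0.83 (adjusted p = 0.0351, edgeR quasi-likelihood with Benjamini-Hochberg adjustment). Its value was 2.33 without RIP EV replicate 1 and 4.56 without RIP EV replicate 2, where the latter rests on 2 reads in RIP EV and is no measure of size, and 5 of 11 alternatives ended the call, among them leaving out RIP eIF4A2 FL replicate 1 (2.97) or 2 (3.25). The calls of *Osbp*, *Tm7sf2*, *Lipa*, and *Fads2* ended in 2 of 11, with edgeR on the RIP libraries alone and with voom. Between the inputs none of the genes of these lists was called, nor was any of the 10754 transcripts. The medians were 0.18 for the enzymes, 0.033 for SREBP processing, 0.31 for transport, and 0.38 for fatty acid synthesis, against 0.0082 for all transcripts.

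The medians of these lists depended on the method and on single libraries. With voom, the median relative to RIP EV was 1.45 for the enzymes, against 1.70 for all transcripts. Those of SREBP processing, transport, and fatty acid synthesis were then 2.29, 2.8, and 1.05. Without RIP EV replicate 1 the medians relative to RIP EV were 0.99 for the enzymes, 2.14 for SREBP processing, and 1.22 for fatty acid synthesis, against 0.67 for all transcripts. Without RIP EV replicate 2 they were 3.24, 0.48, and 0.69, against 3.07. That of transport was 2.71 without RIP EV replicate 2, and without RIP EV replicate 1 it falls on a gene with 0 reads and has no size. Against input, that of transport was lowest when RIP eIF4A2 FL replicate 2 was left out, at -1.28, and highest when input eIF4A2 FL replicate 1 was, at 0.093. The median of SREBP processing reached its lowest value, -0.00057, without input eIF4A2 FL replicate 1, and was 0.089 without RIP eIF4A2 FL replicate 2. That of the enzymes was -0.36 without input eIF4A2 FL replicate 2, and that of fatty acid synthesis -0.13 without input eIF4A2 FL replicate 1. Between the inputs, all but fatty acid synthesis turned below 0 without input eIF4A2 FL replicate 2 (-0.032, -0.16, and -0.075).

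Profiles of 42 genes of these lists across the 8 libraries were compared with the mean profile of the 8 genes, as a description. The highest Pearson correlations of log2(CPM + 1) were those of *Sc5d* (0.975), *Srebf2* (0.969), *Osbp* (0.942), *Fads2* (0.941), and *Tm7sf2* (0.924). Over the 6 libraries without RIP EV they were 0.0955, 0.653, 0.567, 0.495, and 0.0419, a comparison added after the values were seen. The likeness of *Sc5d* and *Tm7sf2* thus rested on the RIP EV libraries, and that of the others was lower without them. All points share depth and library preparation. Among the 8 genes themselves, each against the mean of the other 7, the correlation ran from 0.953 for *Fdft1* down to 0.206 for *Insig1* and -0.611 for *Lss*. These values include the RIP EV libraries, and their part in them was not tested.

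The transcripts of the 8 genes differed in length and base composition. By the longest coding transcript of each gene, lengths ran from 1382 nt (*Fdps*) to 4667 nt (*Lss*), with a median of 3140 nt over 10088 coding genes past the filter. The 5′ UTR was long in *Fdft1* (847 nt) and *Sqle* (764 nt) and short in *Lss* (54 nt) and *Insig1* (75 nt), with a median of 186 nt. The 3′ UTR was 58 nt in *Fdps* and 278 nt in *Sqle* and between 1603 and 2414 nt in the other 6, with a median of 1156 nt. The GC content ran from 41.9% (*Idi1*) to 54.5% (*Fdps*), with a median of 50.5%. Which isoform the 3′ tags came from was not measured.

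Promoter windows of RefSeq (GRCm38.p6), the 250 bases before the transcription start, were found for 5 of the 8 genes, *Hmgcs1*, *Idi1*, *Lss*, *Cyp51*, and *Insig1*. They were searched on both strands for the core of the sterol regulatory element, which SREBP2 binds, as CACCCCAC and as TCACCCCA, where overlapping matches counted as 1, and for the CCAAT box (CCAAT), bound by NF-Y. A core of the sterol regulatory element was in 1 of the 5 windows, that of *Hmgcs1*, and in 3.39% of all 32851 windows. Variants of these letters were not searched, so a window without a match may still hold such an element. A CCAAT box was in all 5 windows and in 33.8% of all windows, but the boxes of *Idi1* and *Cyp51* lie within their transcripts as annotated by GENCODE, so 3 of the 5 hold a box upstream of it. The windows of *Hmgcs1* and *Lss* are shown to compare their motifs. *Hmgcs1* had the highest mean level of the 8 genes in each group. Its window is the only one of the 5 with both motifs, which 0.944% of all windows hold. A link between level and motifs was not tested. *Lss* was above all inputs in RIP eIF4A2 FL. Matches are in capitals, and the stretch of *Lss* ends where its annotated transcript starts. They lie at chr13:119690101-119690350 and chr10:76531355-76531587, both on the plus strand.
Hmgcs1: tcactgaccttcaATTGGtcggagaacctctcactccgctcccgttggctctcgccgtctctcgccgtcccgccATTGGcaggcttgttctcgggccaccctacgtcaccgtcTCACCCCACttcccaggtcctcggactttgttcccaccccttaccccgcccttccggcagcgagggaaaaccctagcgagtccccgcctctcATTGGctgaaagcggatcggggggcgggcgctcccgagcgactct
Lss: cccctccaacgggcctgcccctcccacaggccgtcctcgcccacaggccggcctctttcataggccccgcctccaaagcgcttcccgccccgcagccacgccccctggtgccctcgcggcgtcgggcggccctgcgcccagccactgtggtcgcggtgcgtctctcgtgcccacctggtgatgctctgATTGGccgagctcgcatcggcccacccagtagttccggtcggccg

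The core in *Hmgcs1*, the 9 bases TCACCCCAC, lies 137 to 129 bases before the RefSeq start, between CCAAT boxes in the reverse orientation that begin 176 and 45 bases before it, and another begins 237 bases before it. *Lss* holds 1 such box, which begins 62 bases before its RefSeq start. A match describes these letters and not a site of binding.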

How the data were processed

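Per the study's methods and the labels, the authors mapped QuantSeq reads to mm10 with STAR (version 2.5.3a) and ran HTSeq-count (version 0.11.2) for gene totals. Each of the 8 libraries has 1 column of these deposited raw counts. Neither the annotation release nor the strand mode could be learned from the labels or methods. The 5 summary lines of the counter stayed out of totals and tests, and reads with several alignments made up 27.0% to 52.1% of reads. Symbols and positions came from GENCODE M21 (GRCm38), which 52403 of 52550 identifiers matched. The filter kept a transcript if each of the 4 inputs reached 1 CPM. Tests were edgeR's quasi-likelihood tests (version 4.0.16, R version 4.3.3) on counts with TMM factors, and Benjamini-Hochberg adjustment over all 10754 transcripts, with a threshold of 0.05. The SE of a log2 fold change was derived as its absolute value divided by the square root of the F statistic of the test. The fit against RIP EV and that of the difference used all 8 libraries with a spread shared by the groups, and the other comparisons the 6 without RIP EV. Alternatives were DESeq2 (version 1.42.0), limma voom (version 3.58.1), other scaling and filters, other sets of libraries, the replicate number as a block, and each library left out. Code was tested on simulated data with the same spread in every group, which does not check the p-values where RIP EV varies more. The last 500 nt of each member transcript were matched to the genome by blastn (version 2.17.0) at 95% identity over 50 nt. Floors of 3 counts describe counting error alone, as no molecular identifiers were read. Named genes were the 8 members, at most 6 genes per comparison from the fixed lists by smallest p, and the 5 list genes most like the mean profile of the members. The members and lists were chosen with earlier results of these data known.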

Additional observations from a re-analysis of the deposited data

Results flagged for a closer look

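As a difference between groups, RIP over input with eIF4A2 FL relative to EV was past the threshold for *Fdft1*, squalene synthase, at a log2 value of 4.22 (adjusted p = 0.0257, edgeR quasi-likelihood with Benjamini-Hochberg adjustment). RIP over input was below 0 on the log2 scale in both lines, and further below 0 with EV. The log2 value was 3.62 without RIP EV replicate 1 and 5.72 without RIP EV replicate 2, which rests on 1 read in RIP EV and is no measure of size. Both were past the threshold, but the call held in only 7 of 14 alternatives: it ended with voom and without any of the input or RIP eIF4A2 FL libraries.

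Of 42 list genes tested, the same difference was past the threshold and above 0 for 4, against 19.2% of all transcripts. These were *Tm7sf2* (9.54), *Osbp* (9.32), *Fads2* (8.10), and *Lipa* (6.40). Each had 0 reads in both RIP EV libraries, so these fitted log2 values depend on the prior count of the fit and are no measure of size. All 4 calls ended with voom and without input EV replicate 1, either input eIF4A2 FL library, or either RIP eIF4A2 FL library. That of *Lipa* also ended with no filter and that of *Fads2* with the replicate block. Their levels in RIP eIF4A2 FL were 9.99 and 21.4 CPM for *Tm7sf2*, 22.0 and 15.1 CPM for *Osbp*, 7.94 and 7.42 CPM for *Fads2*, and 2.14 and 2.31 CPM for *Lipa*.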

How the results depend on the processing

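Against RIP EV, DESeq2 called 2 of the 7 genes and 3270 of 10754 transcripts higher and 1128 lower, and without a filter 2 genes and 3790 of 22515 transcripts were higher and 1155 lower. On the 4 RIP libraries alone edgeR called 0 transcripts higher and 0 lower, and voom with a weight per group 0 and 9, with 0 of the 7 genes in either. Leaving out 1 library gave 2050 to 6248 transcripts higher and 136 to 1955 lower, with 1 to 4 genes higher and 0 to 1 lower. The log2 fold change of *Insig1* was 1.07 with voom and 0.36 with the replicate block, and ranged from -1.31 to 4.41 without a library (the highest rests on 1 read in RIP EV); that of *Lss* ranged from -1.99 to 1.63.

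Against input, DESeq2 called 2 genes and 1080 of 10754 transcripts lower. Library size alone gave 1638 transcripts higher and 521 lower, 1 gene (*Lss*) higher, and 0.10 for *Hmgcs1* and 0.11 for *Sqle*. All 8 libraries in 1 fit gave 0 and 6 transcripts. Without a library the counts ran from 135 to 484 higher and 203 to 592 lower, with 0 to 1 genes lower, and *Sqle* from -0.43 to 0.10.

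Between inputs, DESeq2 called 28 transcripts higher and 11 lower, library size alone 1 higher, and no filter 75 and 29. Without a library, log2 values ran from -0.21 to 0.33 for *Sqle*, -0.12 to 0.58 for *Fdps*, -0.10 to 0.22 for *Lss*, and -0.064 to 1.11 for *Insig1*.

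For the difference between cell lines, DESeq2 called 608 transcripts lower and no filter 373, and voom 0 in both directions, with 0 genes and 0.51 for *Insig1*. Without a library, 0 to 5806 transcripts were higher and 0 to 1337 lower, 0 to 4 genes higher and 0 to 1 lower, with log2 values from -0.087 to 1.25 for *Fdps*, -2.04 to 1.59 for *Lss*, -0.25 to 0.39 for *Cyp51*, and -1.79 to 3.92 (again on 1 read) for *Insig1*.

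The differences between replicates were not correlated between input and RIP (r of 0.0215 for EV and -0.00749 for eIF4A2 FL). Such values do not exclude that input and RIP libraries of the same replicate number were paired. With the number as a block, 134 transcripts were lower in the difference between cell lines, and *Fdft1* kept its calls, while those of *Ubxn4* (adjusted p = 0.0754), *Sc5d* (0.0587), and *Srebf2* (0.0592) against RIP EV and that of *Fads2* (0.0508) in the difference ended in this edgeR fit with Benjamini-Hochberg adjustment. The cause of these changes was not tested. In the 1-library fits of a group the lone library is assumed to vary like the other groups. The depth of RIP EV limits levels there to 0.557 CPM for 0 counts.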
